A study of Mus musculus with 8 samples.

Results

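In epidermal progenitors of control mice, 643 narrow H2AK119ub peaks lay inside protein-coding genes, away from the gene ends, and met no peak in progenitors that lacked Eed. They made up 13.9% of the 4621 peaks in the control list. A peak was included if it was under 8000 bp wide, shared 0 bp with every one of the 2541 peaks in the Eed cKO list, and overlapped the span of a protein-coding gene without touching a window of 2 kb on either side of any protein-coding gene start or end. The peaks were thus chosen by their width, their position and their lack of overlap with the Eed cKO list, so their absence from Eed cKO, their widths and their distance from gene ends are given below as a description with no test. The mark had been mapped by ChIP-seq, the sequencing of DNA pulled down with an antibody, in basal-layer epidermal progenitors of back skin, taken on postnatal day 0 and sorted as positive for EpCAM and Sca1 and high for α6-integrin. The 2 groups used here were Eed cKO mice, given as Eed-/- in the labels, and mice labelled Control. Each group had 2 H2AK119ub libraries and 1 deposited peak list, and the labels give neither the Cre driver, the sex, nor which animals a library came from. Ring1a/b 2KO mice, given as Ring1a-/- Ring1b-/-, were not analysed here.

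H2AK119ub is histone H2A with a single ubiquitin near its carboxyl end. Polycomb repressive complex 1 (PRC1) adds it through its catalytic subunits RING1A and RING1B. Eed encodes a protein that Polycomb repressive complex 2 (PRC2) needs to methylate H3K27. Canonical PRC1 holds a CBX protein that binds methylated H3K27, whereas variant PRC1 is recruited without it, in part through CpG-rich DNA. In skin, both complexes are known to keep genes of other lineages silent in epidermal progenitors. The comparison addressed which regions with H2AK119ub were still called once PRC2 was disrupted.

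Each list held the position of its peaks with no height, score or p-value, so a peak was either called or not called, and read depth is unknown. A shorter list can come from less ubiquitin, from shallower libraries or from a stricter caller setting, and these cannot be told apart. Because each genotype had 1 list, nothing here carries a replicate error. Intervals in parentheses are 95% intervals, by Wilson's method for shares and from order statistics for medians, and cover counting error alone. Neither list had a peak at Krt14, Krt5 or Trp63, defining genes of basal keratinocytes, nor at Eed, Ezh2, Suz12 or Rnf2, so peak positions show neither the sorted cell type nor the deletion. Krt15, also a basal keratinocyte gene, and the suprabasal gene Krt1 had a peak within 2 kb of an end in both lists. The suprabasal gene Krt10 had one in control alone, and Ring1 in Eed cKO alone.

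Being inside the outer limits of a gene did not mean that a peak held no start site. The RefSeq promoter table for GRCm38.p6, the assembly also called mm10, gives 300 bases per start, from 250 before it to 50 after it. It covered the chromosomes of 627 of the 643 peaks. Of these, 47 (7.50%, 5.68 to 9.83) overlapped a promoter of their own host gene, meaning the start of a shorter transcript inside the gene, and 20 (3.19%) overlapped a promoter of a gene that does not code for protein. None of the 627 overlapped a promoter of another coding gene, which the rule itself prevents. Outer starts lie in the excluded windows, and a coding gene whose inner start a peak overlaps is by definition its host. Among narrow gene-body peaks that met an Eed cKO peak the host share was close, 21 of 247 (8.50%, 5.63 to 12.6), as was the share with any promoter, 10.0% against 10.5%. With the width limit at 4000 bp, 4.41% of the peaks overlapped a promoter of their host. The sequences below show inner promoters of hosts with low and high CpG content, chosen by CpG ratio or count or, for Foxp1 and Dnajc6, by gene list, with each CpG in capitals. They run 5′ to 3′ on the strand of the gene, which is the minus strand for each except Dnajc6. Pom121 encodes a nuclear pore protein and had the highest ratio of observed to expected CpG, 1.33, with 41 CpGs. Cacna1d encodes a voltage-gated calcium channel and had the most CpGs, 63. The peak over Sptbn4, the gene of an axonal spectrin, covered 3 inner promoters with 1, 24 and 33 CpGs, of which the poorest and the richest are shown. Foxp1 encodes a forkhead factor, and its inner start lay 494 kb from the outer one. Dnajc6 encodes auxilin, a clathrin-uncoating factor of neurons, and its promoter had 9 CpGs.
Pom121 chr5:135394497-135394796: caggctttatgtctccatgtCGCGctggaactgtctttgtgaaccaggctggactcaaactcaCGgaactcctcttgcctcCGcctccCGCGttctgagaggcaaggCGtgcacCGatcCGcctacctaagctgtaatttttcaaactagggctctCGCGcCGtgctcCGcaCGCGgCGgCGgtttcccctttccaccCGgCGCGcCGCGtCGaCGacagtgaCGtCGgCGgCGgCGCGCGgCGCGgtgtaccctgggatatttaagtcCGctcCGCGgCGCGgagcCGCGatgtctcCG
Cacna1d chr14:30353437-30353736: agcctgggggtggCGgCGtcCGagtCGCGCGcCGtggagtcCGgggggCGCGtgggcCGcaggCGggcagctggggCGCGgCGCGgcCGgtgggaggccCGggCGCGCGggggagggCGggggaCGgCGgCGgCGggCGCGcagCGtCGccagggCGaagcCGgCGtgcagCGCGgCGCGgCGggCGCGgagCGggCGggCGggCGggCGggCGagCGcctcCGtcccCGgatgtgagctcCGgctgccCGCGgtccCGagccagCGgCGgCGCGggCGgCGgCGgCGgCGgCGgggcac
Sptbn4 chr7:27394457-27394756: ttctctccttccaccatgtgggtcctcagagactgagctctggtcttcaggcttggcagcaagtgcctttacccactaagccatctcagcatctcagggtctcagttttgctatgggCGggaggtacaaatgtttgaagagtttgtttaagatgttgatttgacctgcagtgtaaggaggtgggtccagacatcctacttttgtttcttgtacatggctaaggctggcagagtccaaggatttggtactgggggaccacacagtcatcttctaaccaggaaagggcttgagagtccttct
Sptbn4 chr7:27396504-27396803: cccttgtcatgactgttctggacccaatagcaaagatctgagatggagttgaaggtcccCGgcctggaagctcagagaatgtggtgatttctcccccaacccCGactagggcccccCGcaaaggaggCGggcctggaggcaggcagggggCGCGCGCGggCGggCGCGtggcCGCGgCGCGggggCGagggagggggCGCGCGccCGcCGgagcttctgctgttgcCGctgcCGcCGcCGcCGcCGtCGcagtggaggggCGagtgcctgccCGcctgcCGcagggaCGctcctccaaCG
Foxp1 chr6:99028249-99028548: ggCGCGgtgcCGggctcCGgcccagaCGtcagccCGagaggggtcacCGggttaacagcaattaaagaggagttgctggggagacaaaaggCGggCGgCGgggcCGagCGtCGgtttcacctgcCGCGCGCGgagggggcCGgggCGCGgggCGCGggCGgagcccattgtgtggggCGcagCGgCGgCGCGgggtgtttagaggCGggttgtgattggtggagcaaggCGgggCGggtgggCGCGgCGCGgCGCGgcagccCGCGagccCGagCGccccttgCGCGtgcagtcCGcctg
Dnajc6 chr4:101507726-101508025: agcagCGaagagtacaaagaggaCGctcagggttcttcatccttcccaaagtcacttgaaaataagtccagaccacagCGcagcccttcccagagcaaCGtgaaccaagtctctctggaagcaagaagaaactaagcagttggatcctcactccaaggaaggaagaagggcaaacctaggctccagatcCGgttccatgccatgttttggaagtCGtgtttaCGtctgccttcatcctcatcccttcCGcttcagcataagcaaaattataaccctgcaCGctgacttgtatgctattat

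The 47 peaks covered 59 inner promoters of 46 host genes, 55 of them over their whole length. The inner starts lay between 2.88 and 957 kb from the outer start, with a median of 35.2 kb. Their CpG ratio had a median of 0.555 and ran between 0.056 in Sptbn4 and 1.33 in Pom121. Under narrow gene-body peaks that met an Eed cKO peak, 23 inner promoters had a median ratio of 0.603, and 2703 inner coding promoters under no peak of either list had a median of 0.331. With a ratio above 0.6 and a GC content above 50% called CpG-rich, 24 of the 59 promoters under control-only peaks were CpG-rich (40.7%, 29.1 to 53.4), against 12 of 23 (52.2%, 33.0 to 70.8) under the peaks still met in Eed cKO and 683 of 2703 (25.3%, 23.7 to 26.9) under no peak. Read the other way, control-only narrow peaks lay on 24 of the 806 CpG-rich inner coding promoters (2.98%, 2.01 to 4.39) and on 35 of the 2152 others (1.63%, 1.17 to 2.25). The order was the same for narrow gene-body peaks that met Eed cKO, at 1.49% and 0.511%, and for control peaks of any kind, at 13.4% and 5.53%. The CpG content under the control-only peaks thus overlapped widely with that under the peaks still met. CpG content was read in these promoter sequences and not over whole peaks. Promoters of the same gene can overlap, as under the peak in Elavl2, so the 59 are not independent and their intervals are likely too narrow.

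**Figure D1:**
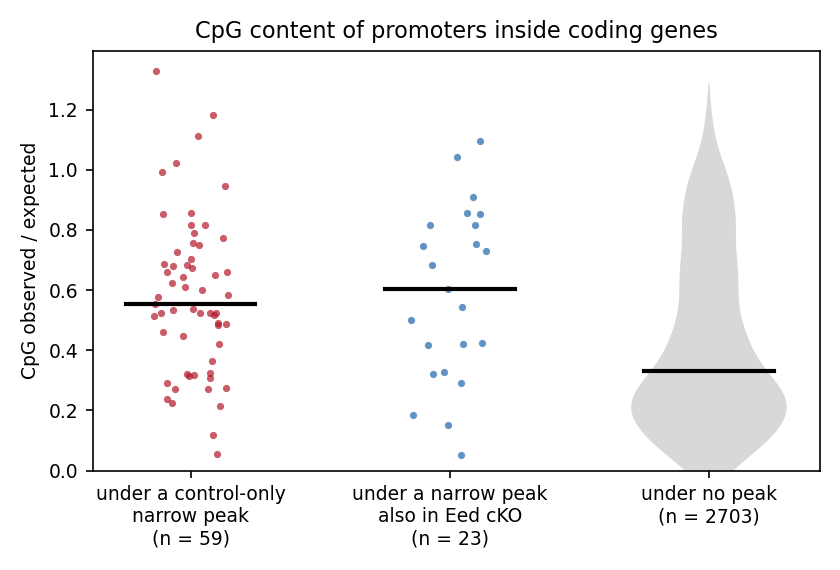
Ratio of observed to expected CpG in each 300-base RefSeq promoter that lies inside a coding gene, away from its ends. Each point is 1 promoter under a control-only narrow peak (n = 59) or under a narrow control peak that met Eed cKO (n = 23), the outline shows the distribution for promoters under no peak (n = 2703), and bars mark the medians of 0.555, 0.603 and 0.331.

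In 31 of these 46 genes (67.4%, 53.0 to 79.1) neither list had a peak within 2 kb of an outer end, against 52.4% (47.9 to 56.9) of the 471 other hosts, in 9 both lists had one, in 0 the Eed cKO list alone and in 6 the control list alone. The genes with ends called in both lists included Kcnh2, a potassium channel gene, Nfatc2, a calcineurin-dependent transcription factor gene, Mecom, a zinc finger factor gene, and Hivep3. In 22 of the 46 genes (47.8%) the peak over the inner promoter was the sole control peak in the gene's span, close to the 45.0% of other hosts. Foxp1 was one of them: its 1978 bp peak at chr6:99027208-99029185 sat 543 kb from the next control peak and 664 kb from the next Eed cKO peak. Cacna1d was another, with 4442 bp called at chr14:30351417-30355858, 240 kb from the next control peak and 1892 kb from the next Eed cKO peak.

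MicroRNA genes were also found under the peaks. Inside coding genes and clear of the 2 kb windows at gene ends there were 644 microRNA genes. Of these, 7 lay under 6 of the 643 control-only peaks (0.933% of these peaks), and 1, Mir5110, under 1 of the 250 narrow peaks that met Eed cKO (0.400%). The counts are too small to tell these shares apart. Mir338 and Mir3065 overlap on opposite strands inside Aatk, a kinase gene of neurons, under a 5819 bp peak at chr11:120009880-120015698. Mir483 lay inside Igf2, which encodes a fetal growth factor, and Mir6402 inside Elavl2, which encodes a neuronal RNA-binding protein, under the same peak as an inner promoter. Mir1904 lay in Pde4d, Mir7035 in Rasa4 and Mir7240 in Mast3. The 11 mature sequences of these genes had 11 different seeds. The 4 below come from the peaks in Aatk and Igf2 and are shown because these microRNA genes are also known in human, and the seed, bases 2 to 8, is in capitals.
mmu-miR-338-3p: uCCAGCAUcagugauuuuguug
mmu-miR-338-5p: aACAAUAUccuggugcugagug
mmu-miR-483-3p: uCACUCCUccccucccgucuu
mmu-miR-483-5p: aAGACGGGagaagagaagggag

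Among all control peaks, 2870 of 4621 (62.1%) shared 0 bp with the Eed cKO list. Among narrow peaks inside gene bodies the share was 643 of 893 (72.0%, 69.0 to 74.9). It was 1033 of 1651 (62.6%, 60.2 to 64.9) for narrow peaks at gene ends and 841 of 1149 (73.2%, 70.6 to 75.7) for narrow peaks outside genes. Control peaks inside gene bodies and at least 8000 bp wide were absent from Eed cKO in 47 of 114 cases (41.2%, 32.6 to 50.4). Within gene bodies the share was 74.7% under 2 kb, 75.5% at 2 to 4 kb, 66.8% at 4 to 6 kb and 63.7% at 6 to 8 kb, so it was smaller in the wider bands. In each of these width bands the gene-body share lay above that at gene ends, where the same bands gave 71.4%, 68.8%, 64.0% and 47.1%, and the intervals were apart in the widest band alone. These shares rest on the values that chose the peaks and are not evidence of their own.

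**Figure D2:**
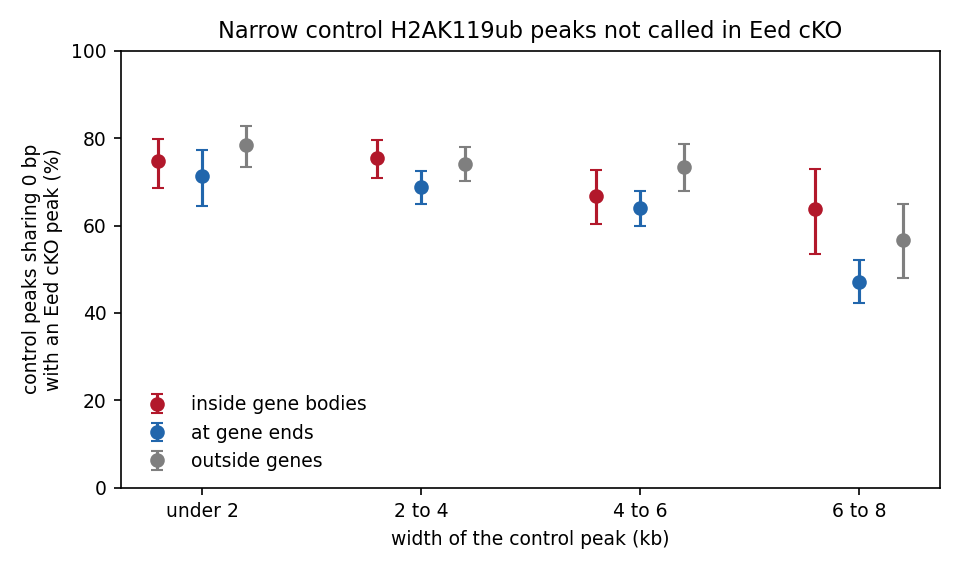
Share of narrow control H2AK119ub peaks that share 0 bp with an Eed cKO peak, by width of the control peak in kb, for peaks inside gene bodies, at gene ends and outside genes. Points are shares in percent and bars their 95% Wilson intervals for counting error, and the gene-body share runs between 63.7% and 75.5%.

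The 643 peaks were 601 to 7830 bp wide, with a median of 2939 bp (2730 to 3112), and together covered 2.12 Mb, or 0.223% of the 950 Mb of gene interior beyond the windows. Narrow gene-body peaks that met an Eed cKO peak had a median of 3568 bp (3213 to 3859). Control-only narrow peaks had a median of 3968 bp (3749 to 4110) at gene ends and 2905 bp (2713 to 3047) outside genes. The gene-body peaks were thus close in width to those outside genes. The narrowest were a 601 bp peak in Strip2, which encodes a subunit of a phosphatase-kinase complex, and a 692 bp peak in Fignl2, a gene of the microtubule-severing fidgetin family.

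Just inside the width limit lay a 7830 bp peak in Srrm3, the gene of a neuronal splicing factor, a 7618 bp peak in Tlcd4 and a 7560 bp peak in Elavl2. Just outside it, and so left out, were control-only gene-body peaks of 8145 bp in Tmeff2 and of 8198 and 8232 bp in Skap1. On the side of overlap, excluded peaks with little shared sequence included one sharing 675 bp with the Eed cKO list in Sptb and one sharing 679 bp in Sec14l2, and these were wholly or nearly covered. Where narrow gene-body peaks met Eed cKO, as 250 did, they were covered over a median of 99.7% of their width, with 165 (66.0%) covered over at least 90% and 18 (7.20%) under 50%. Contact between the lists was therefore mostly near complete or absent. At the windows, the peak closest to a gene end began 2002 bp from it.

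The rule drops peaks that touch the Eed cKO list, and few control-only peaks lay beside an Eed cKO peak. This was not particular to gene bodies. Of narrow control-only peaks at gene ends and outside genes, 6.87% and 8.56% had one within 5 kb, and the median gaps were 198 and 85.3 kb. For the 643 gene-body peaks the gap to the nearest Eed cKO peak had a median of 99.5 kb (81.6 to 120). Of them, 4 (0.622%) had one within 1 kb, 35 (5.44%) within 5 kb, 73 (11.4%) within 10 kb and 322 (50.1%) within 100 kb. The closest was in Chst11, a chondroitin sulfotransferase gene, where the 4154 bp peak at chr10:83060296-83064449 stopped 0.305 kb short of an Eed cKO peak. Next came Zfp469 at 0.535 kb, BC052040 at 0.618 kb, Engase at 0.995 kb and Mfge8, the gene of a protein that bridges dying cells to phagocytes, at 1.07 kb. The most distant was in Tle1, which encodes a Groucho-type corepressor, 8738 kb from the nearest Eed cKO peak. The forkhead gene Foxp2 followed at 6913 kb, Tlcd4 at 6359 kb, the zinc finger E-box factor gene Zeb2 at 6165 kb and the choline transporter-like gene Slc44a3 at 6159 kb.

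Other control peaks were nearer, at a median gap of 27.3 kb, and 155 of the 643 peaks (24.1%) had one within 5 kb. The rule drops peaks that touch the Eed cKO list, which is also shorter than the control list, so this order is no finding of its own. The median gap to another control peak was 24.3 kb for narrow gene-body peaks that met Eed cKO. For narrow control-only peaks outside genes it was 28.3 kb. The state of a neighbour within 5 kb went with the state of the peak. Of the 155, 39 neighbours met an Eed cKO peak (25.2%, 19.0 to 32.5), against 46 of 61 (75.4%, 63.3 to 84.5) for narrow gene-body peaks that themselves met one. Where the nearest control peak was over 50 kb away, it met an Eed cKO peak for 78 of 253 (30.8%, 25.5 to 36.8) and for 31 of 87 (35.6%, 26.4 to 46.1). Both states were read against the same Eed cKO list, and a single wide Eed cKO peak can meet a peak and its close neighbour together. The contrast within 5 kb is thus partly built in and is a description with no test. Neighbours within 5 kb are also not independent of each other. Linking control-only gene-body peaks less than 10 kb apart gave 41 groups with 86 peaks (13.4%), and linking those less than 100 kb apart gave 93 groups with 217 peaks (33.7%). The most isolated narrow gene-body peaks, at least 100 kb from another control peak, were absent from Eed cKO in 185 of 234 cases (79.1%, 73.4 to 83.8), against 71.8%, 69.6% and 67.5% at gaps under 5 kb, of 5 to 20 kb and of 20 to 100 kb.

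The 643 peaks fell in 517 protein-coding genes, which is 2.36% of the 21887 in the gene table. Of these host genes 421 held 1 such peak, 96 held at least 2 and 27 at least 3, and 4 peaks lay in more than 1 gene. The hosts were long. Their span had a median of 89.8 kb (74.7 to 102) and 239 (46.2%) spanned over 100 kb, whereas all protein-coding genes had a median of 17.2 kb with 11.1% over 100 kb. The 224 hosts of narrow peaks that met Eed cKO had a median of 68.4 kb (52.9 to 87.8) with 39.3% over 100 kb. A longer gene leaves more room beyond the windows, and per Mb of gene interior the order was the reverse: 0.972 control-only peaks per Mb in genes of 4 to 20 kb, 0.926 at 20 to 50 kb, 0.766 at 50 to 100 kb, 0.692 at 100 to 200 kb, 0.592 at 200 to 500 kb and 0.365 in genes over 500 kb. Peaks that met Eed cKO thinned out further, at 0.0469 per Mb in genes over 500 kb. There 70 peaks were control-only and 9 were not, so that 88.6% (79.7 to 93.9) were absent from Eed cKO, against 65.2% to 75.4% in the shorter classes.

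**Figure D3:**
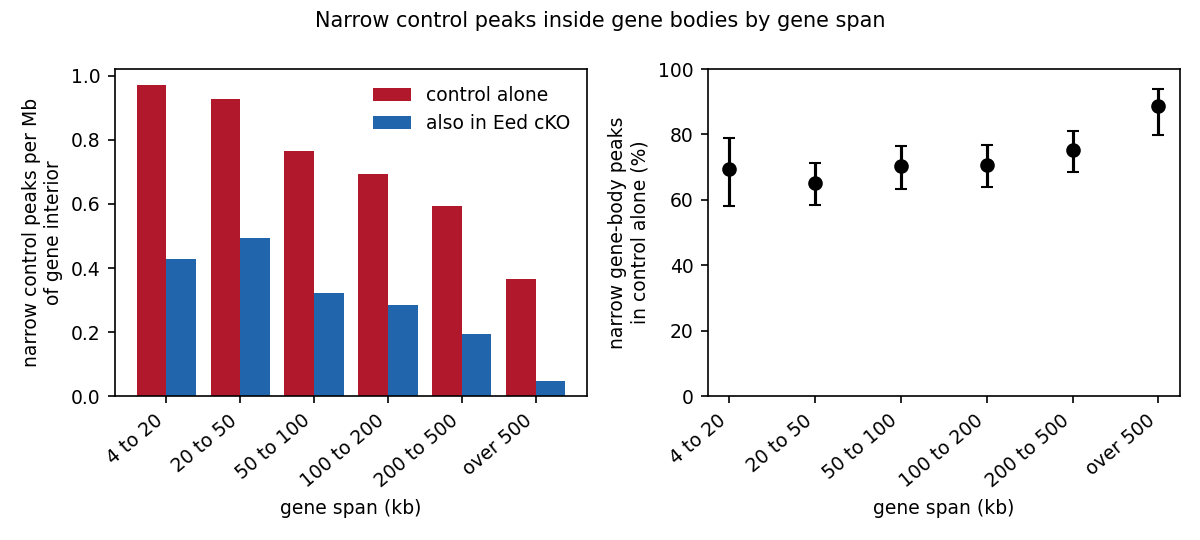
Narrow control H2AK119ub peaks inside protein-coding genes by gene span in kb. The left panel gives peaks per Mb of gene interior for peaks in control alone and peaks also in Eed cKO, and the right panel the share in control alone in percent with 95% Wilson intervals for counting error; density runs down with span while the share reaches 88.6% over 500 kb.

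The longest hosts each held 1 to 3 of the peaks. Lsamp, a cell adhesion gene of the limbic system with a span of 2197 kb, held a single 1760 bp peak 23.6 kb from its 3′ end, and Magi2, a synaptic scaffold gene of 1485 kb, a single 2206 bp peak 9.52 kb from its start. Pde4d, a cyclic AMP phosphodiesterase gene of 1302 kb, held a peak of 1692 bp and one of 5146 bp, 691 kb apart. The teneurin genes, which encode large adhesion proteins of neurons, held 3 peaks in Tenm3 and 2 in Tenm2. Of these 5 genes, Tenm2 had a control peak and a separate Eed cKO peak near its start, which did not overlap. The other 4 had no peak of either list at their ends. No Eed cKO peak lay inside any of the 5 spans.

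Along the host genes the peaks were spread over the whole span. With strand known for 508 pairs of peak and gene, the midpoint lay at a median of 46.6% of the span, and cutting each span into 3 equal parts gave 170 midpoints in the 5′ part (33.5%), 185 in the middle part (36.4%) and 153 in the 3′ part (30.1%). Narrow peaks that met Eed cKO gave 33.2%, 37.6% and 29.2% in the same order. The nearest gene end was a median of 17.7 kb away (15.3 to 21.3), and 115 of 647 pairs (17.8%) lay within 5 kb of one. Windows of 5000 bp, which remove the pairs nearest to an end, gave a median of 28.2 kb. Peaks just beyond the window at a gene start included 5393 bp in Slit2, 2.39 kb inside the gene, and 3175 bp in Pcdh7, 2.44 kb inside, and both genes had no peak of either list at their ends. The gene table holds spans and not exons, so exon or intron is not given.

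Hosts were divided by the state of their ends, read in each list on its own, whether or not the peaks of the 2 lists overlapped. Of the 517 hosts, 91 (17.6%, 14.6 to 21.1) had a peak within 2 kb of an end in both lists, 17 (3.29%, 2.06 to 5.20) in Eed cKO alone, 131 (25.3%, 21.8 to 29.3) in control alone and 278 (53.8%, 49.5 to 58.0) in neither. The last share was 47.4% with windows of 5000 bp, so whether most hosts had an end called turned with the window. Over all protein-coding genes the same shares were 5.71%, 1.70%, 5.94% and 86.7%, so ends of hosts were called more often than those of genes at large. The 224 hosts of narrow peaks that met Eed cKO had 28.1%, 10.7%, 20.1% and 41.1%. Genes were in both host groups in 57 cases, 11.0% of the one and 25.4% of the other. Over all protein-coding genes 2.36% held a control-only peak, and both host groups were longer than genes at large, so this overlap is not read as a result. An Eed cKO peak lay somewhere in the span of 168 hosts (32.5%), and 339 hosts had no Eed cKO peak in the span or at the ends. In 234 hosts (45.3%) the control-only peak was the sole control peak in the span.

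**Figure D4:**
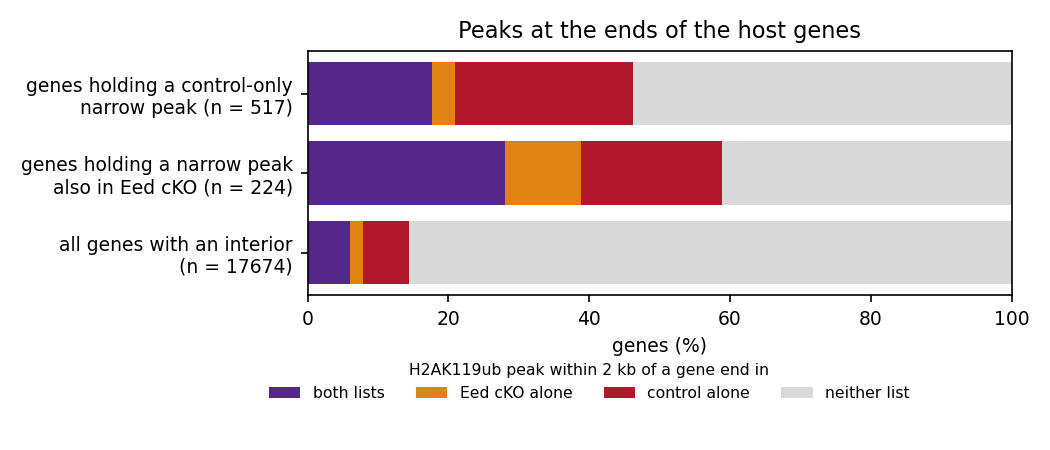
Percent of genes with an H2AK119ub peak within 2 kb of a gene end in both lists, in Eed cKO alone, in control alone or in neither, for the 517 genes that hold a control-only narrow peak, the 224 that hold a narrow peak also met in Eed cKO, and the 17674 genes with an interior beyond the windows. Neither end was called in 53.8%, 41.1% and 85.6%.

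The share of narrow gene-body peaks absent from Eed cKO was lower where the host's ends were called in Eed cKO. Counted as pairs of peak and gene, it was 19 of 47 (40.4%, 27.6 to 54.7) where the ends were called in Eed cKO alone. It was 130 of 204 (63.7%, 56.9 to 70.0) where they were called in both lists, 159 of 209 (76.1%, 69.9 to 81.4) in control alone and 339 of 441 (76.9%, 72.7 to 80.6) in neither. The last 2 shares were alike. Both the share and the end states rest on the same Eed cKO list, and a host with several peaks counts more than once, so this is a description with no test. Several hosts had their ends called in both lists and interior peaks in control alone. In Map1b, the gene of a neuronal microtubule protein with a span of 95.1 kb, 4 interior peaks of 1910, 7521, 7128 and 1822 bp were called in control and none of them in Eed cKO, while both lists had a peak at the gene's ends. In Pax5, a B-cell and brain paired box gene, the 10.4 kb Eed cKO peak at the start met a 26.6 kb control peak, and interior control peaks of 6918 and 1880 bp met none. Pax2 had a 23.2 kb Eed cKO peak and a 50.6 kb control peak at its start, and its 6780 bp interior control peak lay 55.2 kb from the nearest Eed cKO peak. Sorbs3, which encodes the adhesion protein vinexin, was a host with ends called in Eed cKO alone and held a 7077 bp control-only peak. Its 9202 bp Eed cKO peak at the end was not new, as it met a control peak that lay beyond the 2 kb window.

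The host with most of these peaks was Gse1, which encodes a coregulator found with the CoREST complex. Its span of 353 kb held 8 Eed cKO peaks and 12 control peaks, and 2 of the Eed cKO peaks were narrow, interior and met no control peak. Of the control peaks, 5 were narrow, interior and control-only, and 5 were narrow, interior and met Eed cKO. The 5 control-only peaks, of 6377, 5316, 4856, 1483 and 2709 bp, began 28.4 to 275 kb from the start, interspersed with shared peaks. Tns3, which encodes a tensin that ties integrins to actin, had 4 such peaks of 3575 to 7363 bp among 3 Eed cKO and 8 control peaks. Zfp469 had 4 peaks of 3954 to 5299 bp among 3 Eed cKO and 7 control peaks. Slit3, the gene of a guidance ligand for Robo receptors, had 4, of which 3 followed each other at gaps of 3.51 and 5.80 kb and the third lay 6.29 kb from an Eed cKO peak. Ttll11, a tubulin polyglutamylase gene, had 4, between 24.5 and 95.6 kb from the nearer gene end.

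**Figure D5:**
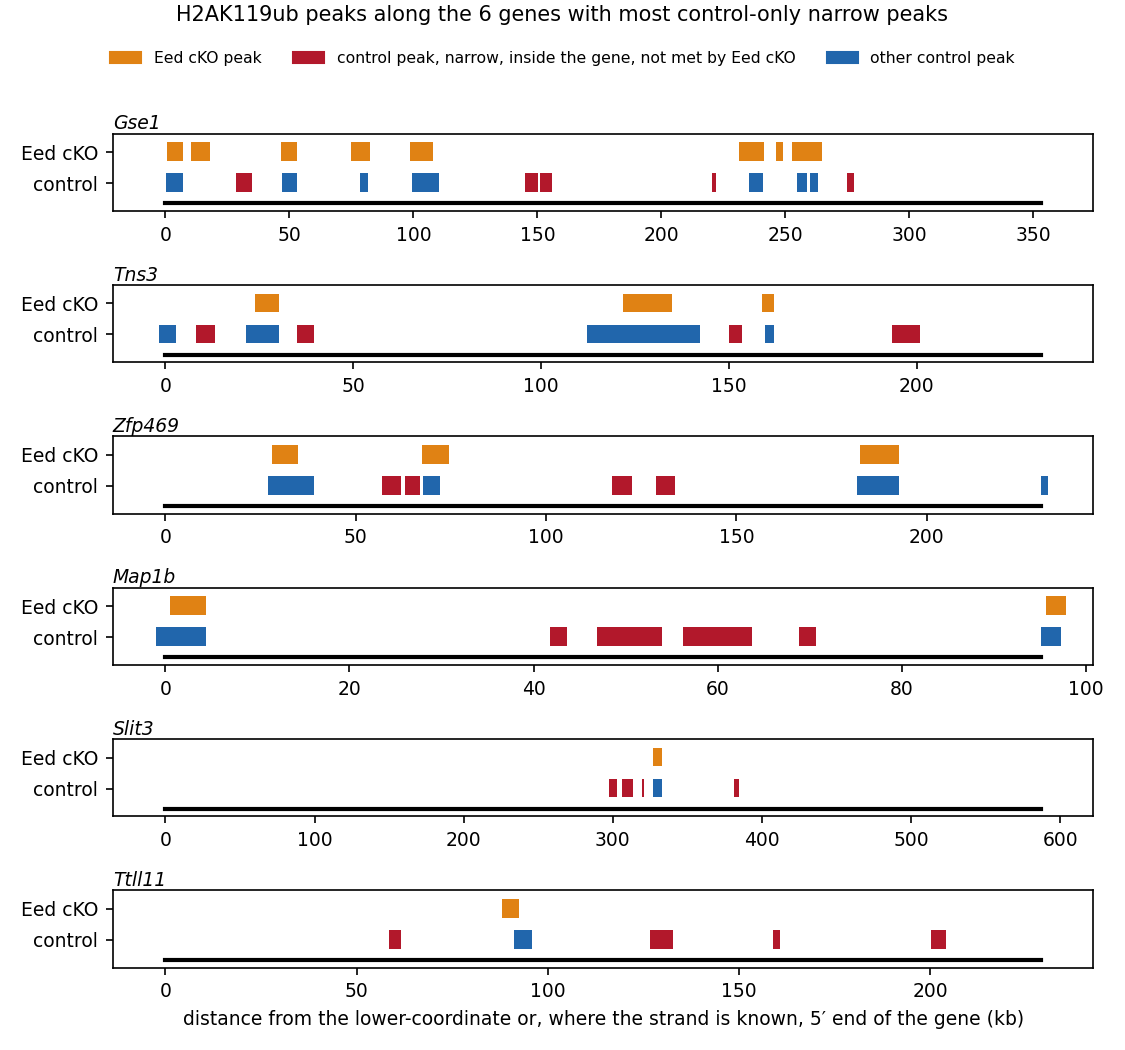
H2AK119ub peaks along the 6 host genes with most control-only narrow peaks, with the Eed cKO list above the control list and distance in kb along each gene. Distance runs from the 5′ end where the strand is known (Gse1, Tns3, Map1b and Slit3) and otherwise from the end with the lower coordinate (Zfp469 and Ttll11); the black line is the gene span, and the 5 control-only peaks in Gse1 and 4 in each other gene share the span with peaks that overlap between the lists.

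Other hosts had no Eed cKO peak at all. Runx2, the gene of the main transcription factor of bone-forming cells, held 3 control peaks of 4190, 3565 and 4539 bp in 319 kb, all narrow and interior, and the nearest Eed cKO peak was 741 kb away. Srrm3 held peaks of 7830 and 6954 bp, 2.33 kb apart, with no Eed cKO peak within 18.1 kb. Elavl2 held peaks of 7560 and 5167 bp besides a 1798 bp control peak before its start, and its nearest Eed cKO peak was 3613 kb away. Foxo1, which encodes a forkhead factor under insulin control, held interior peaks of 2188 and 7216 bp downstream of control peaks of 8812 and 5591 bp at its start, and no Eed cKO peak.

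Host genes were then read against gene lists by function, with the share of all protein-coding genes that host such a peak, 2.36%, and 0.665 peaks per Mb of interior summed over genes as the background. Lists differ in gene length, so both measures are given and no list was tested. In each list with narrow gene-body control peaks, the interval of their control-only share included the 72.0% found over all genes. Of 229 homeobox, paired box, SRY box, forkhead, T-box, GATA and zic factor genes, 15 were hosts (6.55%, 4.01 to 10.5) with 22 peaks, or 2.27 per Mb. Beside Foxo1, Foxp1, Foxp2, Pax2 and Pax5 they included Foxn3, Gata4, Lmx1b, Meis1, Pax3, Tbx21, Tshz2 and Zfhx3. In the same genes 12 narrow gene-body peaks met Eed cKO, so that the control-only share was 64.7% (47.9 to 78.5), against 72.0% over all genes. Meis1, a homeobox gene of limb and blood, held 5850 and 3707 bp among 5 control peaks with the nearest Eed cKO peak 3067 kb away, and Zfhx3 held 3 of 3014 to 5256 bp among 9 Eed cKO and 13 control peaks.

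Of 38 genes of the Polycomb complexes themselves, 6 were hosts (15.8%, 7.44 to 30.4) with 8 control-only peaks, at 3.08 per Mb. Another 5 narrow gene-body peaks there met Eed cKO, so that 61.5% (35.5 to 82.3) were control-only, against 72.0% over all genes. The hosts were Cbx7, which encodes a chromodomain subunit of canonical PRC1, and Phc2, for a polyhomeotic subunit. Others were Pcgf5 and Auts2, for parts of variant PRC1, and Bcor and Bcorl1, for corepressors of a variant PRC1. Cbx7 showed both states within 55.3 kb: a 4151 bp Eed cKO peak met a 2022 bp control peak near the start, while the 3633 bp control peak at chr15:79932870-79936502 met none and lay 11.4 kb from an Eed cKO peak. In Bcor the single control peak, of 4639 bp, met none, and an Eed cKO peak of 4790 bp that met no control peak lay 2.32 kb from it. Auts2 held 3 control-only peaks of 1610, 2786 and 3752 bp among 3 Eed cKO and 4 control peaks in 1106 kb.

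Among signalling genes, 4 of 69 WNT, FGF, BMP, GDF, activin and hedgehog ligand genes were hosts (5.80%, 2.28 to 14.0; 1.22 peaks per Mb), namely Fgf5 with 6151 bp, Bmp6 with 4471 bp, Wnt3 with 4349 bp, and Bmp3. Of 21 Notch pathway genes 1 was a host (4.76%, 1.55 per Mb), Notch2, with peaks of 2631 and 3447 bp. Of 51 receptor tyrosine kinase and phosphatase genes 6 were hosts (11.8%, 5.51 to 23.4), but these are long genes with 0.554 peaks per Mb, below the background; the hosts were led by Ptpre with 4405 bp and the WNT receptor genes Ror2 with 3329 bp and Ror1 with 2171 bp. Of 92 genes of exchange factors and activating proteins of small GTPases 10 were hosts (10.9%, 6.01 to 18.9), at 0.928 per Mb, led by Rasa4 with 5243 bp, Arhgap23 with 4794 bp and Arhgap22 with 4281 and 3346 bp. The G protein-coupled receptor genes named Gpr or Adgr gave 3 hosts of 102 (2.94%, 0.703 per Mb), close to all genes. Axon guidance ligands and receptors gave 6 of 73 (8.22%, 3.82 to 16.8), with 10 peaks at 0.741 per Mb, among them 5954 and 4856 bp in Ephb2, an ephrin receptor gene.

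Voltage-gated and potassium channel genes gave 12 hosts of 138 (8.70%, 5.04 to 14.6). Here 13 narrow gene-body peaks were control-only and 11 met Eed cKO, a control-only share of 54.2% (35.1 to 72.1), against 72.0% over all genes. Kcnh2 held 7256 bp and the calcium channel gene Cacna1c held 4561 and 2832 bp, 1.83 kb apart. The same list had 0.775 peaks per Mb of interior, near the background of 0.665, and its genes had a median span of 42.6 kb against 17.2 kb for all. Neurotransmitter receptors gave 4 of 103 (3.88%), namely Grik4, Grm5, Grin1 and Chrna5, at 0.265 per Mb. Cadherins and protocadherins gave 5 of 109 (4.59%) at 0.294 per Mb, led by 6077 bp in Cdh23, a gene of hair cells of the inner ear. Both lists thus lay below all genes per Mb. The intervals of their host shares, 1.52 to 9.56 and 1.98 to 10.3, included the 2.36% of all genes. Matrix genes gave 6 of 87 (6.90%, 3.20 to 14.2) at 0.703 per Mb, led by Tnxb, the gene of a tenascin of skin, with 6658 and 1466 bp. Solute carriers gave 12 of 346 (3.47%) at 0.867 per Mb, led by Slc2a3, a glucose transporter gene, with 5847 and 979 bp.

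Lists that mark the cell types of skin are short, and their shares rest on 0 to 2 hosts each. Of 24 basal keratinocyte genes and 28 suprabasal keratinocyte genes, 0 and 0 were hosts, shares of up to 13.8% and 12.1% by the Wilson upper limits. Of 20 Merkel cell genes, 1 was a host (5.00%, 0.888 to 23.6; 1.48 peaks per Mb), Dnajc6, with 2688 and 2054 bp. Of 14 melanocyte genes 1 was a host (7.14%, 1.27 to 31.5; 1.99 per Mb), the neural crest factor gene Pax3, with 3555 and 2797 bp beside wider control peaks. Of 24 dermal fibroblast and mesenchymal genes, 2 were hosts (8.33%, 2.32 to 25.8; 1.76 per Mb): Zeb2 with 6757 bp and Pdgfra, a growth factor receptor gene of fibroblasts, with 1543 bp, and both had ends called in control alone. Leukocyte genes gave 0 hosts of 20 and endothelial genes 0 of 16. Of 397 Zfp genes 5 were hosts (1.26%, 0.676 per Mb), and of 1107 olfactory receptor genes, 86 ribosomal protein genes and 29 housekeeping genes none was a host. The last 3 lists leave little or no room beyond the windows, at 0.623, 0.0504 and 0.357 Mb of interior, as do the leukocyte genes at 0.372 Mb and the suprabasal genes at 0.595 Mb.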

How the data were processed

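The deposited data used here were the authors' H2AK119ub peak lists for Eed cKO and control, with chromosome, start and end of each peak in mm10 per the file headers. The submitters' processing notes list Bowtie2 2.3.3.1 together with SAMtools 1.9. Which caller, threshold and input made the lists, and how 2 libraries became 1 list, is not given in the sources used here. From these lists, overlap was taken at 1 bp or more, and peaks were placed against the spans of 21887 RefSeq protein-coding genes of GRCm38.p6. Strand and inner promoters came from RefSeq promoter sequences, which do not cover every gene. CpG ratio is the CpG count times length over the product of C and G counts. The peaks, gene lists and alternatives were chosen with earlier results of these data known. The genes named were hosts picked by width, number of peaks, distance to Eed cKO peaks, span and list, 82 in all, some of which are not reported here. Hosts named for a microRNA or an inner promoter were chosen after their values were seen, as were the other listed hosts. The ribosomal gene pattern was corrected after the lists were read, and 1 of 30 housekeeping genes had no entry. Analyses ran in Python 3.11.15 with pandas 2.3.3, numpy 2.4.6, scipy 1.17.1 and matplotlib 3.10.9, and the overlap rule was tested on simulated peaks.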

Additional observations from a re-analysis of the deposited data

How the results depend on the processing

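No paired analysis was possible because each genotype has 1 peak list with no replicate columns, and for the same reason no replicate could be left out. Over 10 alternatives and 14 summary values, 126 of 140 values stayed within the main interval or within 1.5 times the main count. A width limit of 4000 bp gave a share absent from Eed cKO of 75.2%, a median width of 2.32 kb, gaps of 136 kb to an Eed cKO peak and 35.2 kb to another control peak, inner promoters under 4.41% of the peaks, and 124 narrow Eed cKO peaks of the mirrored rule. With no width limit the share was 68.5%, and 68.1% where an Eed cKO peak within 5000 bp counted as shared. Peaks of at least 2000 bp had a median width of 3.57 kb. Windows of 1000 bp and 5000 bp gave 59.4% and 47.4% of hosts with neither end called, the second below 50% where the main value is above it, and 14.1 and 28.2 kb to the nearest gene end, and with 5000 bp the median host span was 111 kb. Of the 82 named hosts, 51 still held such a peak with the limit of 4000 bp, 73 with windows of 5000 bp, 74 among peaks of at least 2000 bp, 75 with the 5000 bp gap, and 80 to 82 under the others.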

Other observations

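Exchanging the lists in the rule gave 191 narrow peaks inside gene bodies that met no control peak, of 2541 in the Eed cKO list. The rule itself gave 643 of 4621 in the control list (13.9%), so the 2 counts rest on lists of unlike length. The 191 peaks were 661 to 7972 bp wide with a median of 3249 bp (2972 to 3675), and their nearest control peak was at a median of 52.4 kb. They lay in 173 genes, and 29 genes held both kinds, 5.61% of the hosts of control-only peaks and 16.8% of the others. Over all protein-coding genes 2.36% held a control-only peak. Both host groups were long genes, with median spans of 89.8 and 93.3 kb against 17.2 kb for all, so the overlap is not read as a result. Those 29 include Gse1, Adarb1, an RNA-editing enzyme gene with a 2240 bp Eed cKO-only peak and a 6704 bp control-only peak, and Ptgis, the prostacyclin synthase gene, with 6476 bp in Eed cKO and 6065 bp in control, 2.47 kb apart. An inner promoter of the host lay under 6 of 185 of these Eed cKO peaks (3.24%, 1.49 to 6.89), against 47 of 627 control-only peaks (7.50%, 5.68 to 9.83) and 21 of 247 narrow gene-body control peaks that met Eed cKO (8.50%, 5.63 to 12.6), with overlapping intervals.

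Control-only gene-body peaks differed in density between chromosomes, as did control peaks of any kind. Over all chromosomes there were 0.677 per Mb of gene interior, counting overlapping genes once. Chromosome 11 had 71 peaks, or 1.42 per Mb, and chromosome 4 had 69, or 1.21 per Mb, whereas chromosome 16 had 6, or 0.163 per Mb. They were 14.3%, 20.1% and 7.06% of the control peaks of any kind there, 495, 343 and 85, against 13.9% over all chromosomes. On the X chromosome 14 of 16 narrow gene-body peaks were control-only (87.5%, 64.0 to 96.5), among them those in the Polycomb genes Bcor and Bcorl1. This interval includes the share over all chromosomes, 643 of 893 (72.0%). Chromosomes 12 and 14 were close to X, at 85.7% and 85.3%, while chromosome 16 had 46.2% of 13 such peaks. Long non-coding RNA genes overlapped 67 of the 643 peaks (10.4%), 39 of which held such a gene's start or end, and 24 of the 250 narrow gene-body peaks that met Eed cKO (9.60%). No explanation for these values was tested.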
